A study of Mus musculus with 5 samples.

Results

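The crypts of the colon hold the stem and progenitor cells that renew its lining, and 8 genes of those cells and of the Eph receptors that order them were followed through a dilution of one RNA into another. The genes were Prom1, Tnfrsf19, Ephb2, Ephb3, Lgr5, Ascl2, Cd44 and Myb. Each was represented by the probe sets annotated to that gene alone, the brightest by its mean over the arrays standing for the gene, and all probe sets are given for Tnfrsf19. No probe set assigned to Ephb2 alone was found among the 22626 analysed here, which left 7 genes with 14 probe sets out of 12393 genes measured. Ephb2 is therefore not analysed here.

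The study measured mixtures of 2 RNA pools on Affymetrix mouse expression arrays. One pool came from whole C57BL/6 mice aged 1 day, and the other from the colon of adult C57BL/6 mice aged 8 weeks, each pooled from several animals, so tissue and age differed together. The mixes held 0%, 25%, 50%, 75% or 100% adult colon RNA, and 10 ng of each mix was amplified by T7 transcription in a double round and hybridised to 1 array. All 5 arrays draw on the same pools and no mix was repeated, so precision is limited by how few arrays there are, and the p-values carry no information on how mice differ. Median log2 signals of the arrays lay between 6.83 and 6.92. In pooled tissue RNA, fewer cells of a type and less RNA per cell cannot be told apart.

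Crypt cells are kept in division by Wnt signals, which stabilise beta-catenin and let it act with TCF/LEF factors on target genes. Lgr5 is a receptor for R-spondins, which strengthen Wnt signals, and Ascl2 is a transcription factor of the stem cell state. EphB receptors are dense at the crypt base, while their ephrin-B ligands lie toward the surface, and repulsion between them holds cells in place. Prom1 (CD133), Cd44, Tnfrsf19 (Troy) and the transcription factor Myb are also made by progenitor cells of other organs, such as those of skin, brain, blood and kidney.

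Below, signals are RMA log2 values in order of rising colon share (0%, 25%, 50%, 75%, 100%). The slope is the fitted log2 difference, adult colon minus whole newborn, from a limma regression on colon share over the 5 arrays. A gene "rose" or "fell" when its limma p, adjusted by Benjamini-Hochberg over all 22626 probe sets, was under 0.05. Any bend from a straight line in log2 signal counts as residual, so a gene that did not pass may still differ widely. Among the 7 genes by brightest probe set, Prom1 and Ascl2 rose, Tnfrsf19 fell, and Ephb3, Lgr5, Cd44 and Myb did not pass. That is 42.9% of the members, against 24.3% of all genes called by the same rule. For single directions the shares over all genes were 9.8% risen and 14.5% fallen. Over probe sets 19.5% were called, 8.63% risen and 10.9% fallen, and of the 14 member probe sets 4 rose and 1 fell. The median slope of the 7 was 0.56, and that of all genes was -0.01. At least 2-fold between the undiluted arrays were 3 of the 7 (Prom1, Myb and Tnfrsf19), against 19.6% of all genes (9.26% higher in colon and 10.4% higher in the newborn).

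**Figure D1:**
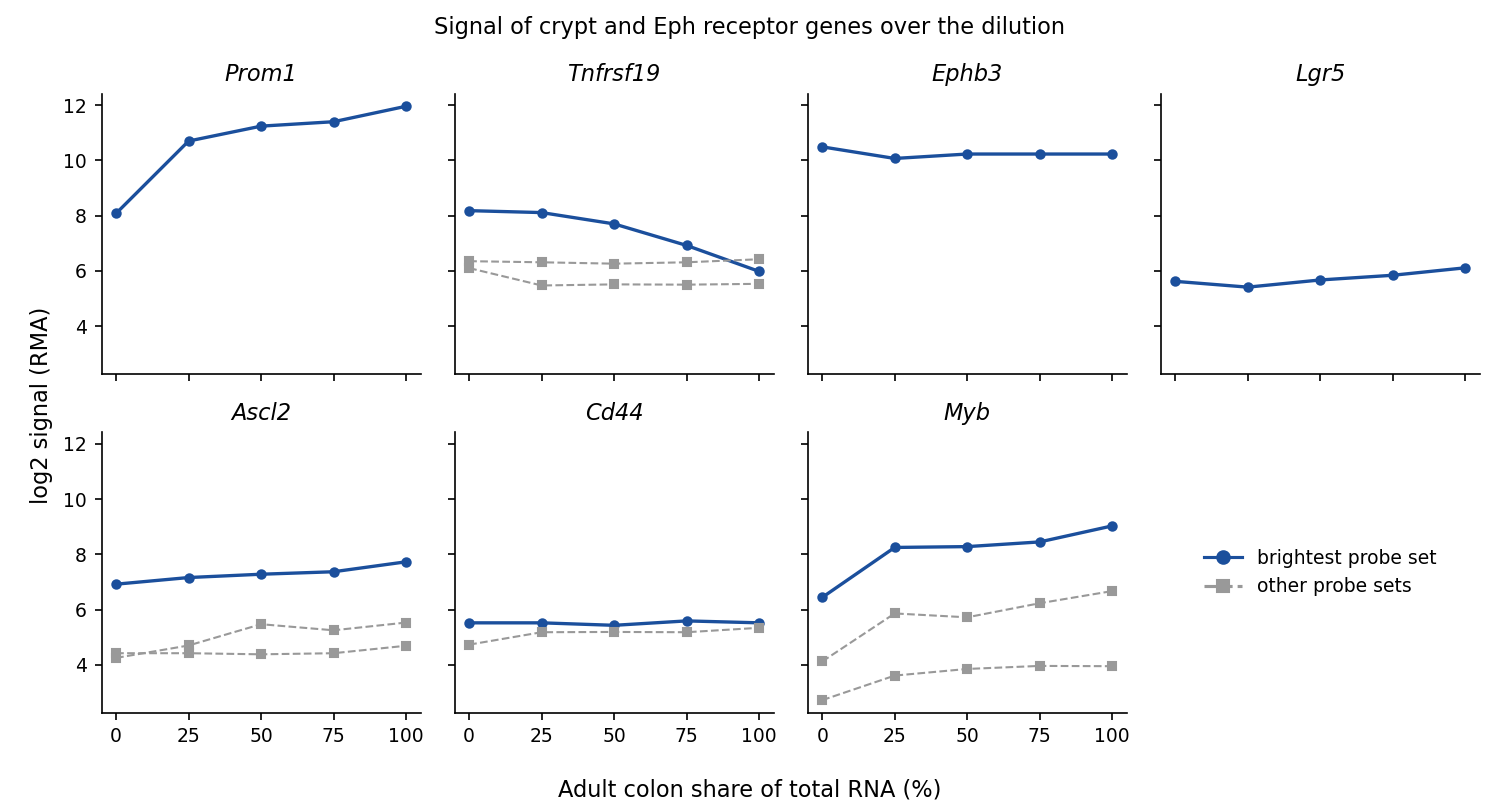
Log2 signal (RMA) of the 7 measured genes against the adult colon share of total RNA in percent, 1 array per point. Solid blue lines are the brightest probe set of each gene and dashed grey lines its other probe sets. Prom1 read 8.08 in the newborn and 11.96 in colon, Myb 6.44 and 9.03, and the brightest probe set of Tnfrsf19 8.18 and 5.98.

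The start regions of the members that rose, and both of those listed for Tnfrsf19, whose probe sets disagreed, are shown to set the letters beside the signals. RefSeq's table for GRCm38.p6 held start windows for 7 of the 8 genes (Lgr5 had no entry), with 2 windows each for Prom1 and Tnfrsf19. The windows run from 250 bases before a start to 50 after it, and the 250 bases before it are printed, 5′ to 3′ on the gene's strand. Capitals mark matches to motifs searched on both strands over the whole window, and the letters searched for Ascl factors were CAGCTG. For TCF/LEF factors a first form was CTTTGAA, a variant of it ended in T and read CTTTGAT, another form was CTTTGTA, and the last form searched for was CTTTGTT. Prom1 and Ascl2 are on the minus strand of chromosomes 5 and 7, and Tnfrsf19 is on the minus strand of chromosome 14.
Prom1 upstream start (GRCm38.p6, chr5:44101737-44101986, minus strand): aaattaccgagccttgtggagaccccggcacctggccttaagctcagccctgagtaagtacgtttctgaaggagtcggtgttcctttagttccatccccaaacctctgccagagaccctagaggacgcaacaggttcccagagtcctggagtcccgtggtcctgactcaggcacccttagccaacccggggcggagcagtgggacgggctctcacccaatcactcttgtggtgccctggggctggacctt
Ascl2 (GRCm38.p6, chr7:142969265-142969514, minus strand): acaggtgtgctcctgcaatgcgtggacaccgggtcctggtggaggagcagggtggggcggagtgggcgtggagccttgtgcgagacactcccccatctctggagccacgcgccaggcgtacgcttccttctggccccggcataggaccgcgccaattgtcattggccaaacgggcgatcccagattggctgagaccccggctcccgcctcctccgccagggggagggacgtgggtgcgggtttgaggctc
Tnfrsf19 upstream start (GRCm38.p6, chr14:61046856-61047105, minus strand): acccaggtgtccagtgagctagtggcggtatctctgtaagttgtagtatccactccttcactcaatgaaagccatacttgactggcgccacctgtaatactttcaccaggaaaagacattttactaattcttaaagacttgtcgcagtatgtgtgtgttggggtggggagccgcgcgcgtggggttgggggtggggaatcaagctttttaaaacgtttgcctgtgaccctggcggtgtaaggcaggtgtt
Tnfrsf19 downstream start (GRCm38.p6, chr14:61037988-61038237, minus strand): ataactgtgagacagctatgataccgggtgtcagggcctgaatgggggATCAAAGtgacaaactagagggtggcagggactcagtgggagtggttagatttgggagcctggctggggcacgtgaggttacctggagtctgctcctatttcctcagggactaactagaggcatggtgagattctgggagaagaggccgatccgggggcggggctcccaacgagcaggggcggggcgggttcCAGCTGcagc
No match was found in either Prom1 window or in the windows of Ascl2, Ephb2 and Cd44. The upstream start of Tnfrsf19 had none, and its other start held one match to each motif. Ephb3 had a CAGCTG, and Myb had a CTTTGTT after its start. Of 32544 windows over all genes, 16.9% held a TCF/LEF match and 16.4% held CAGCTG, so a match in a few of these windows is close to that background. No match says only that these letters are not in this window.

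Prom1, a pentaspan glycoprotein of membrane protrusions on epithelial progenitors, had the largest slope of the members. Its single probe set (1419700_a_at) gave 8.08, 10.70, 11.24, 11.40 and 11.96. The whole newborn array was low, and the 4 arrays with any colon RNA lay above it in strict order. The undiluted RNAs were 3.87 log2 apart, a 14.63-fold difference, and the fitted slope was 3.38 (SE 0.82, 95% interval 1.26 to 5.50, limma adjusted p = 0.0493). The largest step, between 0% and 25% colon, exceeded the residual SD of 0.83 around the line, whereas each step between the mixtures and colon was smaller than it. Without the whole newborn array it held with a slope of 1.57 (limma adjusted p = 0.0407), but it was lost without the 25% (0.0521), 50% (0.098), 75% (0.135) or 100% array (0.144), fits with fewer residual degrees of freedom.

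Ascl2, the basic helix-loop-helix factor of intestinal stem cells, rose by less. The brightest of its 3 probe sets (1460514_s_at) read 6.92, 7.16, 7.28, 7.37 and 7.73, each array above the one before. Its undiluted difference was 0.81 log2 (1.75-fold) and its slope 0.73 (SE 0.12, residual SD 0.08, limma adjusted p = 0.0202). A dimmer probe set (1432018_at) read 4.25, 4.70, 5.47, 5.25 and 5.53 and rose by 1.24 (SE 0.29, limma adjusted p = 0.0448). The third (1422396_s_at) had 4.42 on 3 arrays, 4.38 at 50% colon and 4.69 in colon, and did not pass (slope 0.21, adjusted p = 0.355). The values of this last probe set lay in the range of 27 control probe sets for bacterial genes, which read between 2.65 and 5.23, as did the 2 lowest of 1432018_at. The sources do not say whether such spikes were added. For the brightest probe set the limma adjusted p was 0.0872 without the newborn array, 0.0587 without the 50% array and 0.115 without the colon array, and stayed under 0.05 without the 25% (0.0471) or 75% array (0.0488). The 1432018_at call held only without the 50% array (0.0302) among the fits that left out 1 array, and it was lost with a floor of 4 (0.0933) and on linear intensity (0.106).

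Myb, the transcription factor that colon crypts and blood progenitors need, was 2.59 log2 (6.02-fold) higher in undiluted colon than in the newborn by its brightest probe set (1421317_x_at). Its signals were 6.44, 8.25, 8.28, 8.45 and 9.03, in strict order, with the newborn array apart from the others. The slope of 2.15 (SE 0.55, 95% interval 0.74 to 3.57) just missed the threshold (limma adjusted p = 0.0544). It passed when arrays were centred on their medians (0.0292), when probe sets with a mean under 6 were left out (0.041), and without the 25% array (0.0393). It did not pass with a floor of 4 (0.11), on linear intensity (0.0562) or without the newborn (0.12, slope 1.00), 50% (0.119), 75% (0.135) or colon array (0.202). A 2nd Myb probe set (1450194_a_at), at 4.12, 5.86, 5.72, 6.23 and 6.67, rose by 2.18 (SE 0.50, limma adjusted p = 0.0428), a call that held without the 25% array (0.0297) and was lost without any one of the others (0.104 to 0.169) and with a floor of 4 (0.0948). The dimmest (1422734_a_at) read 2.72 to 3.96 with a slope of 1.13 (adjusted p = 0.0714). Probe sets ending in _x_at, as the brightest does, may bind related transcripts, and the part of this in the signal was not tested.

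Lgr5, the R-spondin receptor that marks crypt base stem cells, was dim on every array. Its probe set (1450988_at) read 5.62, 5.41, 5.67, 5.84 and 6.11, below the median of each array. The lowest value was at 25% colon and the highest in colon, 0.49 log2 (1.40-fold) above the newborn. The slope was 0.56 (SE 0.18, 95% interval 0.10 to 1.03) and did not pass (limma adjusted p = 0.0938). Without the newborn array it was 0.91 and did (adjusted p = 0.0378). Lgr5 and Ascl2, both genes of the stem cell state, were not shown to differ in slope, the difference between them having a slope of -0.17, and of -0.30 to 0.19 when 1 array was left out (exact permutation test over the 120 orders of 5 arrays, 2-sided, p = 0.583, adjusted over 5 pairs p = 0.583).

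Ephb3, an ephrin-B receptor, had high signals on all arrays and did not pass. It read 10.49 in the whole newborn, 10.07 at 25% colon and 10.23 on each of the other 3 arrays. The newborn array was the highest and the 25% mixture the lowest, a range of 0.41. The slope was -0.14 (SE 0.18, limma adjusted p = 0.655), and its 95% interval, -0.61 to 0.32, spans folds from 0.66 to 1.25. Without the newborn array the sign turned (0.19, adjusted p = 0.375). RNA from whole newborn mice and from adult colon thus gave Ephb3 signals within 1.19-fold of each other.

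Cd44, the hyaluronan receptor of crypt cells and leukocytes, was dim and flat by its brighter probe set. That probe set (1423760_at) read 5.52, 5.52, 5.43, 5.59 and 5.52, with a slope of 0.03 (95% interval -0.25 to 0.31, limma adjusted p = 0.899). Without the 75% array the slope was -0.01. The other (1452483_a_at) read 4.73 in the newborn, 5.18 to 5.19 in the mixtures and 5.34 in colon (slope 0.49, SE 0.17, adjusted p = 0.11). Cd44 and Myb differed in slope by -2.12 (exact permutation p = 0.0167, the smallest that 120 orders can give, adjusted over 5 pairs p = 0.0278). All Cd44 signals were near or below the highest of the bacterial control probe sets (5.23). In size the difference was close to Myb's own slope (2.15).

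Tnfrsf19, a TNF receptor family member made by crypt stem cells and by embryonic skin and brain, was the member that fell. Its brightest probe set (1448147_at) read 8.18, 8.11, 7.70, 6.92 and 5.98, in strict descending order. The colon array lay 2.19 log2 (4.57-fold) below the newborn, and the slope was -2.23 (SE 0.34, 95% interval -3.10 to -1.36, limma adjusted p = 0.0168). A 2nd probe set (1415921_a_at), annotated to the same accession as the brightest, read 6.35, 6.31, 6.26, 6.31 and 6.42 and was flat (slope 0.06, adjusted p = 0.785). The 3rd (1425212_a_at) read 6.10 in the newborn and 5.47 to 5.53 on all arrays with colon RNA (slope -0.45, SE 0.24, adjusted p = 0.281). The brightest and the flat probe set differed in slope by -2.29 (exact permutation p = 0.0167, adjusted over 5 pairs p = 0.0278). Against the 3rd the difference was -1.78 (exact permutation p = 0.0833, adjusted p = 0.104). In both pairs the brightest probe set had been picked by its mean over the same 5 arrays. In colon it read below the flat one (5.98 against 6.42). The fall was thus seen in 1 of 3 probe sets. It was kept without the newborn (limma adjusted p = 0.0352) or the 50% array (0.0418) and lost without the 25% (0.0515), 75% (0.0671) or colon array (0.0939). In slope Prom1 exceeded Tnfrsf19 by 5.61 (exact permutation p = 0.0167, adjusted p = 0.0278). The 1st rose and the other fell in strict order, which fixes this p at the smallest that 120 orders can give. It therefore adds nothing to their own slopes.

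**Figure D2:**
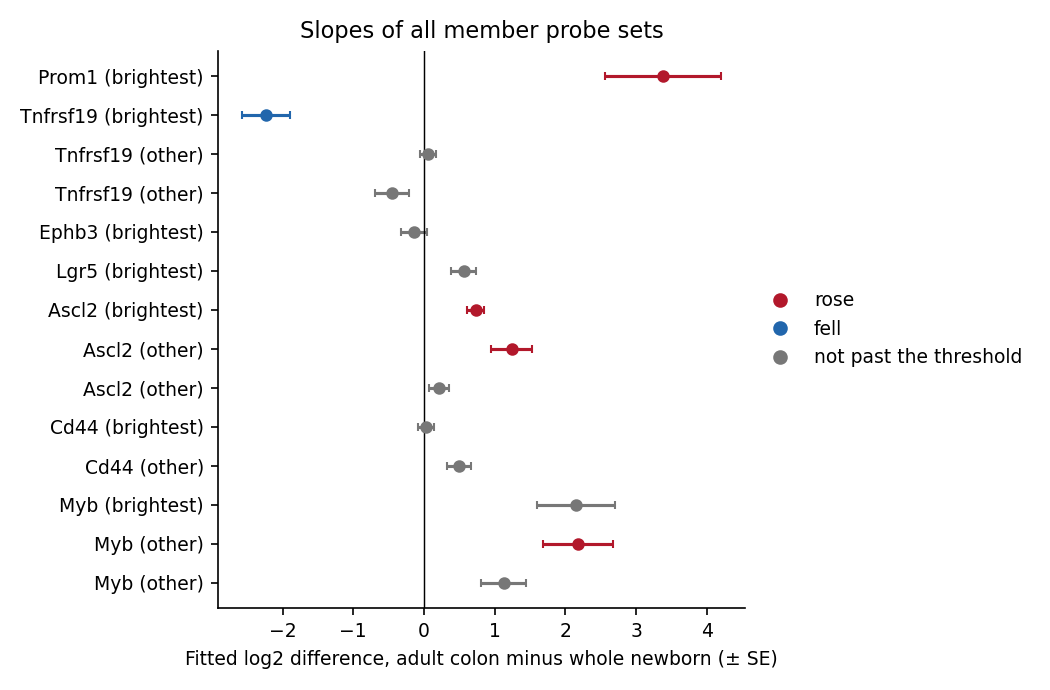
Fitted log2 difference, adult colon minus whole newborn, for all 14 member probe sets (points) with its SE (bars), from the limma regression over 5 arrays. Red marks probe sets that rose, blue one that fell and grey those not past the threshold. The probe sets of Tnfrsf19 spread from -2.23 to 0.06, while those of Myb all lay above 0, from 1.13 to 2.18.

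Mixing acts on intensities and not on their logarithms, so each mixture was also placed between the undiluted arrays on the linear scale. Prom1 intensities were 271.3, 1665.3, 2416.0, 2701.9 and 3970.4. The 25%, 50% and 75% mixtures thus stood 37.7%, 58.0% and 65.7% of the way from newborn to colon. Myb stood at 50.2%, 51.4% and 60.8%, with its 25% and 50% mixtures nearly level. Tnfrsf19 lagged behind the colon share at first, its mixtures standing at 5.8%, 35.8% and 74.3%.

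Most probe sets ran ahead of the nominal share in the weaker mixtures. At least 2-fold apart were 16% of all probe sets (8.19% higher in colon, 7.79% higher in the newborn). Over the 1853 at least 2-fold higher in colon, the median positions were 43.1%, 62.6% and 73.2%, with quartiles of 35.0% and 52.3% for the 25% mixture. Prom1 and Myb fell inside those quartiles at 25% colon. At 50% the quartiles were 53.4% and 72.6%, with Prom1 inside them and Myb below the lower. For the 1763 at least 2-fold higher in the newborn the medians were 35.9%, 62.7% and 80.6%, with quartiles of 22.1% to 48.5% at 25% colon and 54.2% to 70.6% at 50%. Tnfrsf19 lay below the lower quartile in both mixtures, closer to the newborn array than most genes of its direction. In log2 units its 25% and 50% mixtures were 0.25 and 0.24 above the value that linear mixing gives. The medians over those probe sets were -0.15 and -0.22, with a standard deviation of 0.27 in both mixtures, so Tnfrsf19 lay further from its group's median than that. These positions have no replicate and were not tested.

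**Figure D3:**
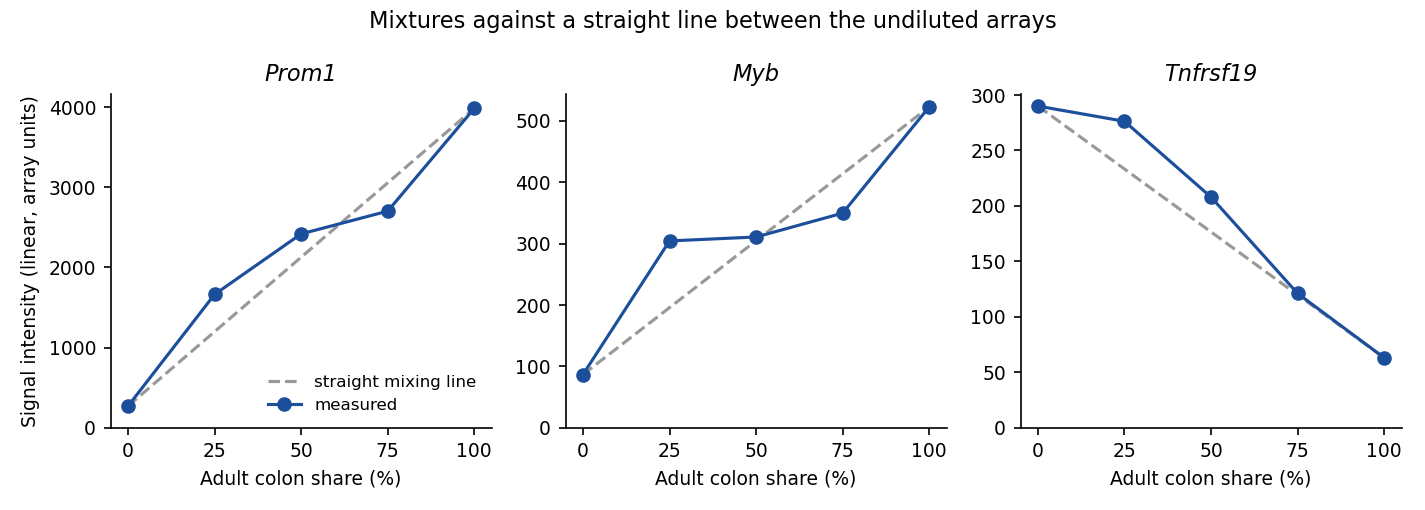
Linear signal intensity in array units against the adult colon share in percent for the brightest probe sets of Prom1, Myb and Tnfrsf19, 1 array per point. The dashed line joins the undiluted arrays. Prom1 and Myb at 25% colon sit above the line (37.7% and 50.2% of the way to colon), and Tnfrsf19 lies above it at 25% and 50% (5.8% and 35.8% of the way to colon).

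The receptors' relatives and ligands were taken as whole families. For these lists and those below, the share called over all genes was 24.3% (9.8% risen and 14.5% fallen). No list was tested against it. Of 11 Eph receptors measured, none rose and 1 fell, with a median slope of -0.01, the same as over all genes. That 1 was Ephb6, a kinase-inactive receptor, at 7.09, 6.85, 6.26, 6.05 and 5.65 (slope -1.47, SE 0.13, limma adjusted p = 0.00583). The other 10, Ephb3 among them, had slopes between -0.45 and 0.33. Some of these read on every array within the range of the bacterial control probe sets (2.65 to 5.23), where a flat course says little. Ephb4, the remaining EphB receptor measured and chosen after its values were seen, had 6.83 in the newborn and 7.01 in colon (slope 0.33, adjusted p = 0.251).

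Among the ligands 2 of 8 rose and 1 fell, with a median slope of 0.29. Efnb2, an ephrin-B of arteries and of gut epithelium, read 7.23, 7.85, 8.22, 8.36 and 8.59, in strict order, and rose by 1.29 (SE 0.19, limma adjusted p = 0.0156). Its 4 probe sets had slopes from 0.28 to 1.29. Efna1 went from 7.55 to 8.49 (slope 0.87, adjusted p = 0.0274). Efnb3, the ephrin-B of the nervous system's midline, descended from 8.27 to 6.33 (slope -1.86, SE 0.15, adjusted p = 0.00499). Efnb1, the other ephrin-B of the crypt, read 8.23, 7.94, 8.29, 8.23 and 8.34 and did not pass (slope 0.21, adjusted p = 0.489). The flat Ephb3 was thus found beside a ligand that rose, one that fell and one that did not pass. These calls and signs were the same with arrays centred on their medians.

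**Figure D4:**
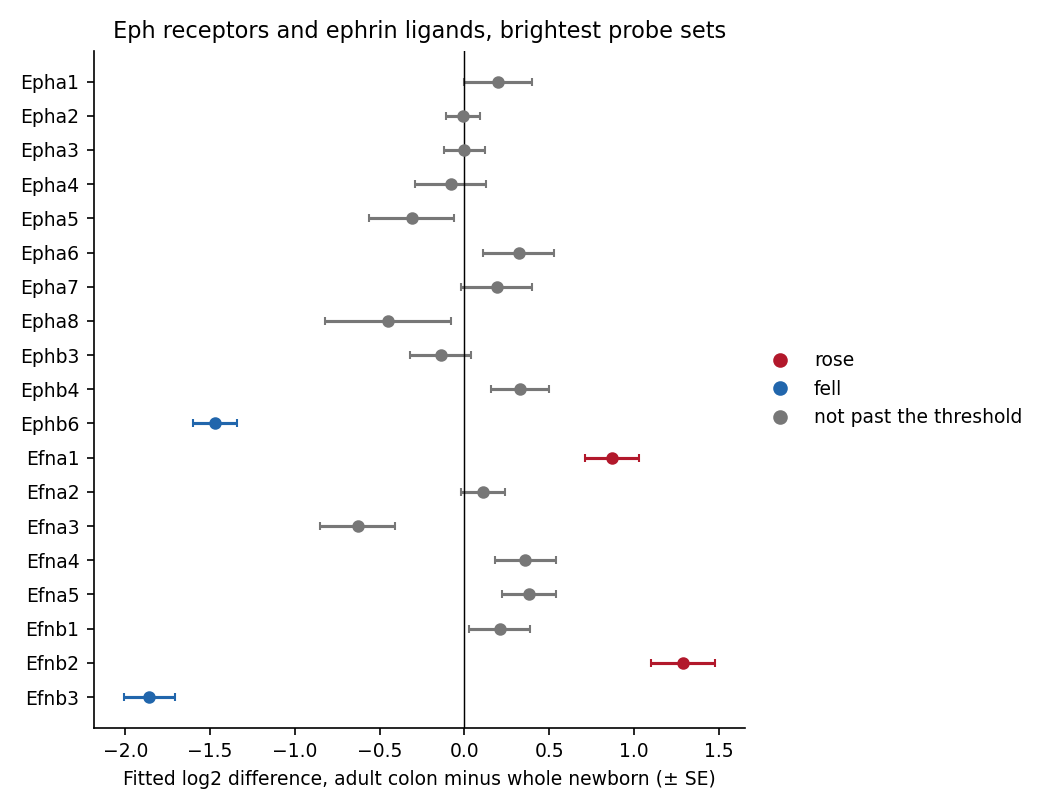
Fitted log2 difference, adult colon minus whole newborn, for 11 Eph receptors and 8 ephrin ligands by brightest probe set (points) with SE (bars). Red marks genes that rose, blue genes that fell and grey those not past the threshold. Efnb2 (1.29) and Efna1 (0.87) lie to the right, Ephb6 (-1.47) and Efnb3 (-1.86) to the left, and Ephb3 (-0.14) near 0.

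Genes of the Wnt machinery around Lgr5 were counted in the same way, beside the 24.3% of all genes called. Of 9 genes of R-spondin and Wnt receptor control, 1 rose and none fell (median slope -0.16). Rnf43, a ubiquitin ligase that removes Wnt receptors and is itself a Wnt target, read 6.12, 6.39, 6.74, 7.13 and 7.07 (slope 1.05, SE 0.16, limma adjusted p = 0.0184). The co-receptor Lrp6 had 8.55 in the newborn and 9.08 to 9.17 on the other arrays (slope 0.48, adjusted p = 0.217). Of 17 effectors and targets, 1 rose and 1 fell (median 0.19). Apc, which helps to destroy beta-catenin, rose by 0.79 (adjusted p = 0.0204) in the brightest of 3 probe sets, the lowest of which had -0.12. Bcl9, a beta-catenin cofactor, fell (slope -0.51, adjusted p = 0.0427), a call lost with arrays centred on their medians, where 2 rose. Beta-catenin itself (Ctnnb1) had 11.26 in the newborn and 11.95 in colon (slope 0.53, adjusted p = 0.15). Its 3 probe sets had slopes from 0.53 to 1.28. The feedback target Axin2, chosen after its values were seen, read between 7.87 and 7.97 (slope 0.04, adjusted p = 0.823).

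Other genes of the crypt base went both ways, with 3 of 15 risen and 2 fallen (median slope 0.16). The chloride cotransporter Slc12a2 read 8.91, 10.24, 10.80, 10.79 and 11.23 (slope 2.08, SE 0.43, limma adjusted p = 0.0342). Its 3 probe sets had slopes from 0.79 to 2.08. Cd24a, a surface glycoprotein of progenitors, rose by 1.63 and the receptor kinase Kit by 1.21, with the other Kit probe set at 0.19. Smoc2, a matrix protein of crypt base cells, fell (slope -0.87), as did the receptor Notch1 (slope -1.22), with their other probe sets at -0.04 and 0.23. Reg4, a marker of secretory cells at the base of colon crypts, also chosen after its values were seen, read 7.04, 10.88, 11.30, 11.57 and 11.83 and did not pass (slope 4.11, SE 1.29, adjusted p = 0.0877). The homeobox gene Hopx, highest in the newborn with 11.50 and lowest in the 75% mixture with 10.85, did not pass (adjusted p = 0.146). With arrays centred on their medians 4 rose.

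Of 22 genes of the TNF receptor superfamily, 5 rose and 2 fell (median slope 0.13). Tnfrsf11a (RANK), the receptor that drives M cell formation in gut and osteoclasts in bone, rose from 5.71 to 7.69 (slope 2.06, limma adjusted p = 0.00891; 0.13 in its other probe set). Tnfrsf21 rose by 1.14 and Tnfrsf1b by 0.81 (0.05 in its other probe set). Centred arrays gave 6 rises. Tnfrsf12a (Fn14) fell (slope -1.07), with both its probe sets near that value (-1.07 and -1.01). Tnfrsf19 had the lowest slope of the family by brightest probe set (-2.23), but not by the median over its probe sets (-0.45).

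Among 12 genes of the Myb family and of Cd44's ligands and partners, none rose and 3 fell (median slope -0.22). Rdx (radixin), which ties Cd44 to actin, fell (slope -1.34), and so did its relative Msn (moesin, slope -0.62), the latter not past the threshold with arrays centred on their medians. Other probe sets reached -0.11 for Rdx and -0.12 for Msn. Ezr (ezrin), the relative found in epithelium, read 9.08, 10.59, 10.97, 10.96 and 11.08 (slope 1.74, limma adjusted p = 0.0853). Ezr was past the threshold with centred arrays, and its other probe set had a slope of 0.35. Has3, a hyaluronan synthase, fell (slope -1.29).

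Of 17 genes of cell division, none rose and 2 fell (median slope -0.12), Mcm7 (slope -0.84) and Mcm5 (slope -0.59), both parts of the replicative helicase. Pcna, the clamp of DNA polymerase, read between 10.72 and 10.93. Over all the pathway lists 24 distinct genes were called, out of the measured genes counted for each list above. By the same rule 24.3% of all genes were called, and the lists were not tested against that share. When the newborn, 25%, 50%, 75% and colon arrays were left out in turn, 9, 12, 8, 4 and 3 of the pathway genes were called.

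The newborn contains many organs, and the markers of several moved along the dilution, as did some of the members. Of 15 measured markers of colon epithelium, 3 rose (5 with centred arrays) and none fell, yet all 15 were higher in colon. Their slopes ran from 1.14 to 5.96 (median 2.90). Car1, chosen after its values were seen, read 6.62 in the newborn and 13.73 to 14.02 on the other arrays. It had the largest slope, 5.96 (SE 2.52), and did not pass (limma adjusted p = 0.174). The log2 of the markers' summed intensities, in which the brightest weigh most, was 14.04 in the newborn and 16.89 in colon. It was already 16.38 at 25% colon. Tff3, a peptide of goblet cells, already read 12.58 in the newborn and 13.88 in colon. By brightest probe set, the slopes of Prom1 (3.38) and Myb (2.15) lay within the range of these markers. Those of Ascl2, Lgr5, Cd44 and Ephb3 lay below the lowest of them, though the dimmer Ascl2 probe set 1432018_at (1.24) did not.

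Each member was also set against the mean log2 signal of those 15 markers, which read 8.76, 11.69, 12.11, 12.24 and 12.42 (a comparison added after the data were seen). Prom1 minus the markers had a slope of 0.23 (exact permutation p = 0.45, adjusted over 7 members p = 0.45), and Myb minus the markers went from -2.32 to -3.40 (exact p = 0.25, adjusted p = 0.292). Ephb3 minus the markers went from 1.73 to -2.19 (slope -3.29, exact p = 0.0167, adjusted p = 0.0583). For Tnfrsf19 the slope was -5.38 (exact p = 0.0167, adjusted p = 0.0583), for Cd44 -3.12 (exact p = 0.0333, adjusted p = 0.0778), for Lgr5 -2.59 (exact p = 0.2, adjusted p = 0.28) and for Ascl2 -2.42 (exact p = 0.117, adjusted p = 0.204). Much of these slopes lay in the newborn array. Without it they were -0.74 for Ephb3, -3.79 for Tnfrsf19, -0.87 for Cd44, -0.02 for Lgr5 and -0.21 for Ascl2, and that of Myb turned to 0.07. None of the 7 passed after adjustment, which does not show that they move alike. Ephb3 and Tnfrsf19 had the smallest exact p that 120 orders can give. Over 7 members they could not pass without further low p-values among the others.

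Markers of skin, nerve and blood ran in the direction of Tnfrsf19. Of 10 markers of epidermis and hair follicle, 7 fell (6 with centred arrays) and none rose (log2 of summed intensities 14.87 in the newborn and 9.218 in colon). Among 11 neural markers 8 fell and none rose (12.46 and 10.06). Krt15, a keratin of hair follicle stem cells, read 11.70 in the newborn and 6.69 in colon, and Fabp7, a protein of radial glia, 9.75 and 4.52. Of 9 erythroid and blood progenitor markers 8 fell, or 6 with centred arrays (12.14 and 9.625), against the direction of Myb. Of 12 leukocyte markers 1 rose (Ptprc, slope 0.91) and 4 fell (12.36 and 11.56). Of 7 markers of kidney tubules 4 fell (10.44 and 9.287), and of 5 photoreceptor markers none was called (7.771 and 7.678), the latter 2 being sites of Prom1 outside the gut. Some of the photoreceptor markers read on every array within the range of the bacterial control probe sets, so their lack of calls says little. The part of these tissues in the members' signals was not tested.

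**Figure D5:**
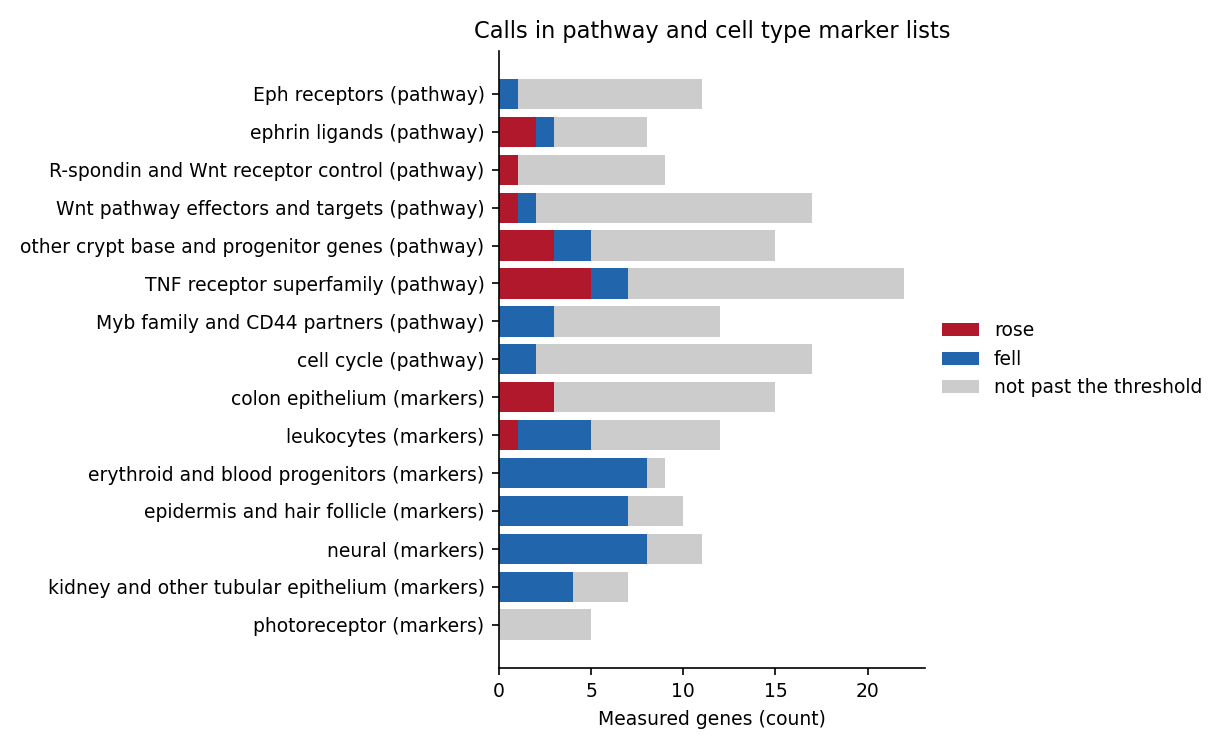
Number of measured genes that rose (red), fell (blue) or did not pass the threshold (grey) in 8 pathway lists and 7 lists of cell type markers, each gene by its brightest probe set. Eph receptors hold 1 fallen gene of 11, while 8 of 9 erythroid, 7 of 10 epidermal and 8 of 11 neural markers fell.

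The genes with the most similar courses were sought for the members at least 2-fold apart, as the smallest root mean square difference over the 5 arrays after centring each profile. Nearest to Prom1 were Sult1b1 (0.0653 log2), a sulfotransferase of gut, Blnk (0.079) and the deiodinase Dio1 (0.0792). Blnk, an adaptor protein of B cells, read 7.50, 9.95, 10.56, 10.76 and 11.15. Nearest to Myb were Coro2a (0.0769), an actin-binding coronin, the nucleotide kinase Cmpk1 (0.0933) and Cryl1 (0.097). Nearest to the brightest probe set of Tnfrsf19 were the tropomyosin Tpm1 (0.0725), Tmem45a (0.0835) and the aldehyde oxidase Aox4 (0.0874). With only 5 arrays many genes share a course, and ranking by Pearson correlation gave 0 of the same 3 genes for each of the 3 members.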

How the data were processed

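RMA, named in the submitters' processing notes without a version, gave the log2 signals that the authors deposited; it corrects background, equalises the arrays' distributions and fits probe effects across arrays. Values were tied between arrays in 9158 probe sets (40.5%). The 64 control probe sets were left out of the fit, and 22626 were tested without a filter. The platform annotation paired 20380 with 1 gene, 691 with several and 1555 with none; only the first were named, and 20351 were matched by gene identifier to RefSeq symbols (GRCm38.p6).

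Log2 signal was regressed on colon share (0 to 1) using the 5 arrays together (limma 3.58.1, R 4.3.3; lmFit, eBayes, 3 residual degrees of freedom), and checked on simulated data. P-values are 2-sided, measure technical spread and any bend from a straight line, and were adjusted over all probe sets at a threshold of 0.05. Slope differences between fixed pairs used the exact permutation test over 120 orders; the pair of Ephb2 with Ephb3 could not be run. Named genes were all members, from each list at most 3 rises and 3 falls with the largest slopes plus the brightest gene not past the threshold, and the 3 genes most like a member. Members and lists were chosen with earlier results of these data known. The alternatives were median centring, a minimum mean signal of 6, linear intensity, a variance trend, a floor of 4, the median over probe sets and leaving out each array.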

Additional observations from a re-analysis of the deposited data

How the results depend on the processing

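Arrays centred on their medians gave 3148 rises and 2325 falls over all probe sets in place of 1953 and 2456, brought Myb past the threshold (slope 2.24) and moved the undiluted difference of Cd44 to 0.08. A minimum mean signal of 6 did the same for Myb (2.15). A floor of 4 gave 2596 calls, of which 826 rose, and 1 member that rose, as Prom1 (3.38) no longer passed. The median over probe sets left 0 members that fell (Tnfrsf19 at -0.45). On linear intensity all 5 pair differences passed, 2 of which had not on the log2 scale, Lgr5 minus Ascl2 (-60.0 units) and Tnfrsf19 against its 3rd probe set (-225.2 units). The variance trend changed none of these results. The causes were not tested.

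Leaving out 1 array in turn leaves fewer residual degrees of freedom. Calls over all probe sets ranged from 997 to 2998 (rises 168 to 1306, falls 829 to 1692), pathway genes from 3 to 12, members that rose from 0 to 2 and that fell from 0 to 1. Slopes ranged from 1.57 to 4.19 for Prom1, -2.86 to -1.67 for Tnfrsf19, 0.59 to 0.79 for Ascl2, 0.37 to 0.91 for Lgr5, -0.26 to 0.19 for Ephb3, -0.01 to 0.06 for Cd44 and 1.00 to 2.55 for Myb. Signs also turned for the 2nd and 3rd Tnfrsf19 probe sets (-0.07 to 0.16 and -0.70 to 0.06), the dimmest of Ascl2 (-0.02 to 0.34) and, against epithelial markers, Myb (-1.91 to 0.07) and Prom1 (-0.15 to 0.64). The other slopes against those markers ranged from -4.59 to -0.74 for Ephb3, -6.01 to -3.79 for Tnfrsf19, -4.29 to -0.87 for Cd44, -3.98 to -0.02 for Lgr5 and -3.76 to -0.21 for Ascl2. Pair differences, which 4 arrays cannot bring past the threshold, ranged from -0.30 to 0.19 for Lgr5 minus Ascl2, 4.43 to 6.00 for Prom1 minus Tnfrsf19, -2.52 to -0.94 for Cd44 minus Myb, and -3.02 to -1.59 and -2.92 to -0.96 for Tnfrsf19 against its 2nd and 3rd probe sets. No paired analysis was possible because each group holds 1 array.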
